A study of Mus musculus with 17 samples.

Results

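This comparison set the gastrocnemius of allulose-fed middle-aged mice against that of young adult mice on the control diet. The members were chosen by their titles alone: 4 mice fed allulose (ALL) and 7 young mice (Mature), 11 of the 17 mice of the series, with all genes of the count table. All mice were male C57BL/6J, without transgene or deletion, and were housed singly. Mature mice entered at an age of 8 weeks and ALL mice at 12 months. Both received a semi-purified diet for 12 weeks, with 3% (w/w) D-allulose for ALL. By the study's methods allulose took the place of cellulose, so the ALL diet also held less cellulose. The other 6 mice (Middle-aged) entered at 12 months and received the diet without allulose, and they are given beside the results. Age and diet both differed between ALL and Mature, so their parts in any difference cannot be told apart within this comparison. The table listed 45777 genes, of which 16731 passed the filter on low counts and were tested.

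Allulose (psicose) is a rare sugar, an epimer of fructose that mammals absorb and largely excrete without using it for energy. The gastrocnemius is a fast-contracting calf muscle. Its fibres are embedded in a connective tissue of collagens made chiefly by fibroblasts, and are served by capillaries, by myelinated motor axons and by a small population of immune cells and adipocytes. RNA of whole muscle holds transcripts of all of these, so fewer cells of a type and less RNA per cell cannot be told apart. Muscle growth in young rodents is accompanied by matrix deposition and by expression of developmental and imprinted genes that decline once growth ends.

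The 11 libraries held 49774656 to 70544150 counts. One extraction label names adipose tissue and liver, so the tissue was checked by markers. Of 10 skeletal muscle genes, Acta1, the skeletal actin, averaged 21600 CPM (library-scaled counts, per 1000000) in ALL and 21700 CPM in Mature, and the only member called was Des, encoding desmin (logFC = 0.27, FDR = 0.046), a call lost on leaving out any mouse but Mature replicate 4 or 5. Of 8 liver genes, 1 passed the filter, and their summed level was 0 to 0.091 CPM in ALL and 0.0654 to 0.471 CPM in Mature. Adipocyte genes, described below, were present and varied among mice, such as Cfd at 2 to 6.93 CPM in ALL and 3.11 to 54.1 CPM in Mature. The markers thus do not answer the adipose part of the label. Transcripts of the mitochondrial genome took 20.2% to 22.4% of the counts in Mature replicates 1, 2 and 3 and 21.8% in ALL replicate 1, against 15.6% to 18.5% in the other 7 libraries. Without the former and the 3 Middle-aged libraries of the same kind, 401 genes were called in place of 1087. That fit kept only these other 7 libraries of ALL and Mature, so it also had fewer mice. With the mitochondrial share as a covariate in a fit of all 17 mice, 1453 genes were called, and all 1087 were among them. The reason for the split in mitochondrial share was not tested.

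Between ALL and Mature, 1087 of the 16731 genes (6.5%) passed an FDR of 0.05. Of these, 555 genes (3.32%) were higher and 532 genes (3.18%) were lower in ALL. The changes were mostly moderate. The median size of logFC, the log2 ratio of ALL to Mature, was 0.56 among the genes called, and more than 2-fold differences were found for 91 genes that rose and 106 that fell. Over all genes tested the median logFC was -0.007 and the median standard error (SE) was 0.136. Among the called genes, 696 had CPM values that did not overlap between the 4 ALL and the 7 Mature mice. Over all genes tested, 3.2% were higher in every ALL mouse than in every Mature mouse and 2.84% were lower. The named genes of highest and lowest logFC were taken only from genes without overlap, so their lack of overlap is no separate finding. Of 1618 long non-coding RNAs tested, 43 were called higher and 12 lower, and of 13939 protein-coding genes, 503 were called higher and 515 lower. The number of calls rested in part on single mice, since 430 genes were called when ALL replicate 3 was omitted, 650 when ALL replicate 4 was and 707 when Mature replicate 6 was.

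**Figure D1:**
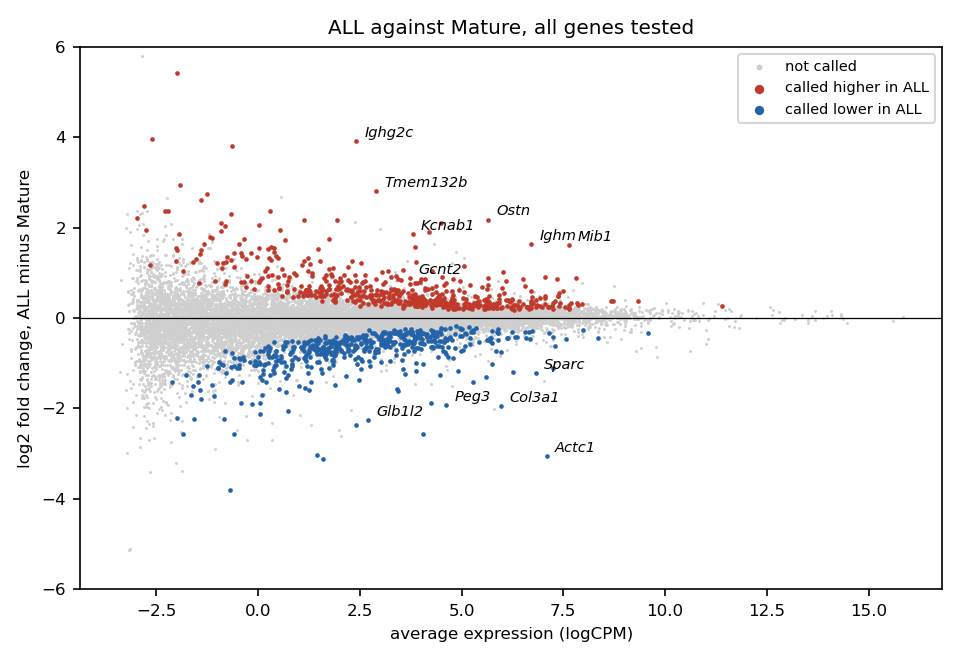
Log2 fold change of ALL against Mature (y axis) by average expression in logCPM (x axis) for the genes tested, with red and blue points for the 555 genes called higher and the 532 called lower in ALL and grey points for the rest. Ighg2c, Tmem132b and Ostn stand at the top and Actc1 at the bottom among the named genes of moderate to high expression, and 6 genes of low expression lie beyond the axis limits.

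Of the gene lists described, collagens had the largest share of members called. Of 17 fibrillar and basement membrane collagen genes tested, 15 fell and 0 rose, compared with 3.18% of all genes that fell. Their median logFC was -0.93. Col3a1 (chr1:45311538-45349706, GRCm38), encoding the chain of type III collagen of pliable connective tissue, had 27.1, 33.6, 23.1 and 24.2 CPM in the 4 ALL mice and 61.4 to 148 CPM (median 87.3) in the 7 Mature mice. Col1a1 (chr11:94936224-94953042), encoding the main chain of type I collagen, had 8.97, 9.67, 8.14 and 7.22 CPM in ALL and 19.2 to 47.8 CPM (median 28.7) in Mature. Every ALL mouse lay below every Mature mouse for both genes, at a logFC of -1.95 (SE = 0.24, FDR = 0.0001) for Col3a1 and -1.88 (SE = 0.24, FDR = 0.00012) for Col1a1. The partner chain of type I collagen, Col1a2, which was chosen for description after its values were seen, also fell (logFC = -1.30, SE = 0.23, FDR = 0.0026).

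The basement membrane around each fibre and capillary is built on type IV collagen. Col4a1 had 55.3, 44.4, 41.5 and 49.9 CPM in ALL and 79.8 to 144 CPM (median 111) in Mature (logFC = -1.20, SE = 0.15, FDR = 0.00014). Its neighbour Col4a2, which starts from the opposite strand and overlaps it at the first exons, had 40.6, 33.6, 34.7 and 38.2 CPM in ALL and 52.5 to 95.2 CPM (median 74.7) in Mature (logFC = -1.02, SE = 0.14, FDR = 0.00021). Neither gene had overlapping groups. Outside the list, Col28a1, whose type XXVIII collagen is found near peripheral nerve in mice, fell from a median of 3.17 CPM in Mature to 0.383 to 1.16 CPM in ALL (logFC = -2.05, SE = 0.35, FDR = 0.0019).

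Genes for assembly and crosslinking of the matrix fell as well, 8 of 21 tested with 0 called higher and a median logFC of -0.64. Over all genes tested, 3.18% fell. Sparc, encoding the collagen-binding glycoprotein osteonectin, had 66.8, 71.3, 68.8 and 80.3 CPM in ALL and 130 to 204 CPM (median 167) in Mature (logFC = -1.21, SE = 0.14, FDR = 7.1e-05). The 4 ALL mice lay close together, at about the same distance below the lowest Mature mouse. Postn, encoding the matricellular protein periostin, had 1.79, 2.17, 1.84 and 1.97 CPM in ALL and 2.74 to 6.81 CPM in Mature (logFC = -1.22, SE = 0.20, FDR = 0.0016). Loxl2, a lysyl oxidase-like enzyme that crosslinks collagen (logFC = -1.13, SE = 0.20, FDR = 0.0019), and Eln, encoding elastin (logFC = -1.0, SE = 0.18, FDR = 0.0027), also fell without overlap. Chrdl1, a secreted BMP antagonist, fell from a median of 2.36 to between 0.34 and 1.02 CPM (logFC = -1.56, SE = 0.31, FDR = 0.0052). Called collagens ranged from 11 to 14 when 1 mouse was left out, and numbered 8 in the libraries with a mitochondrial share under 20%, where Col1a2 (FDR = 0.054) and Chrdl1 (FDR = 0.051) were not called. Called matrix assembly genes numbered 5 without ALL replicate 3.

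**Figure D2:**
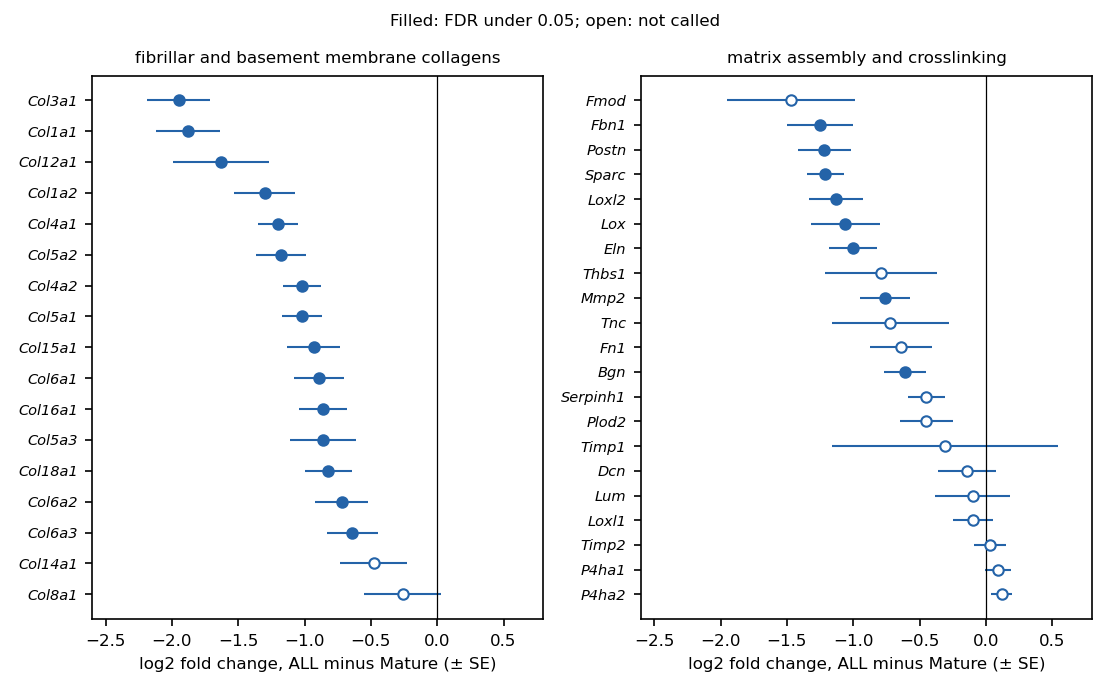
Log2 fold change of ALL against Mature with its standard error (x axis) for each tested gene of the collagen list (left, 17 genes) and of the matrix assembly list (right, 21 genes), filled where FDR was under 0.05. All 17 collagens lie left of 0 and 15 are filled, whereas the assembly genes spread from well below 0 to just above it.

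The promoters of Col1a2, Col3a1 and Sparc, genes that fell together, and of Actc1, the gene with the lowest logFC among those named, are shown so that the sequence at the start of these genes can be read beside their values. The windows run 5′ to 3′ on the gene's strand from 250 bases before to 50 bases after the start in RefSeq (GRCm38.p6), at chr6:4505368-4505667 (+) for Col1a2, chr1:45311288-45311587 (+) for Col3a1, chr11:55420031-55420330 (-) for Sparc and chr2:114052826-114053125 (-) for Actc1. Capitals mark matches to CCAAT and TATAAA on either strand and to the CArG box, the motif bound by serum response factor.
Col1a2: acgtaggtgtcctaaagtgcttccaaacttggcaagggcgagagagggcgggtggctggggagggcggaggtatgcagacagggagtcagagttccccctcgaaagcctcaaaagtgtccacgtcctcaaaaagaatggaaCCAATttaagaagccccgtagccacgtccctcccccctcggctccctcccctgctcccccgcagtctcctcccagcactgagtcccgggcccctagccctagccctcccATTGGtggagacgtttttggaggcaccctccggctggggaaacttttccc
Col3a1: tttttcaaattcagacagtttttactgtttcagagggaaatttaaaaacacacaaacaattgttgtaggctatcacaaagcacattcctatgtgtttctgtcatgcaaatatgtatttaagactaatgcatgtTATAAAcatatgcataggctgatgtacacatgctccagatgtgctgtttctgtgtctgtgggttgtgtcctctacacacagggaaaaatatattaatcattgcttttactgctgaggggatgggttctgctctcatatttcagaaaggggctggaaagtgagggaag
Sparc: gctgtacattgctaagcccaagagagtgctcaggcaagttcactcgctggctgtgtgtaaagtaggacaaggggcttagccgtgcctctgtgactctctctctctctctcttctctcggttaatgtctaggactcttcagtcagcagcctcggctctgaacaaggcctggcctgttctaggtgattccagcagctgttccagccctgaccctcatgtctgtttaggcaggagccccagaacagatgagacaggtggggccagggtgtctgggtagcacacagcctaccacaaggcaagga
Actc1: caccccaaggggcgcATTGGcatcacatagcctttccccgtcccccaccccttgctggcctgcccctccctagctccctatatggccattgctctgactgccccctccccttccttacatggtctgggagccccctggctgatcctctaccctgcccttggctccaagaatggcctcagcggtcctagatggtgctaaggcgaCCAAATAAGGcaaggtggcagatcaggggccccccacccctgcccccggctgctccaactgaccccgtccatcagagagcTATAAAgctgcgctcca
Col1a2 held CCAAT at 109 bases before the start and again on the other strand at the start itself. Col3a1 held TATAAA at 117 bases before the start, and Sparc held no match. In Actc1 a CArG box lay 47 bases before the start, CCAAT lay 235 bases before it on the other strand, and TATAAA lay downstream of the annotated start. Of 32851 promoter windows of the same length, 37.4% held CCAAT, 13.6% held TATAAA and 1.63% held a CArG box, so the first 2 motifs are common and the match in Actc1 is to the rarest of the 3.

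Vascular genes were lower in ALL, with a median nearer to 0 than that of the collagens. Of 15 endothelial markers, 8 fell and 0 rose (median logFC = -0.39), compared with 3.18% of all genes that fell. Their summed level was 345 to 373 CPM in ALL and 423 to 533 CPM in Mature, without overlap. Tie1, an orphan receptor kinase of endothelium, had 21.6, 20.2, 17.9 and 17.5 CPM in ALL and 26 to 35.9 CPM (median 29) in Mature (logFC = -0.63, SE = 0.10, FDR = 0.00099). Pecam1, encoding the junction protein CD31, had 43, 43.5, 41.3 and 46 CPM in ALL and 50.1 to 69.5 CPM (median 60.4) in Mature (logFC = -0.49, SE = 0.08, FDR = 0.0018). Both genes separated the groups although the differences were under 2-fold. Cldn5, the tight junction claudin of endothelium (logFC = -0.98, SE = 0.18, FDR = 0.0029), and Aplnr, the apelin receptor (logFC = -1.29, SE = 0.26, FDR = 0.0062), were the most reduced of the called members. Aplnr in ALL replicate 2, at 5.43 CPM, was just below the lowest Mature mouse at 5.68 CPM, while the other 3 ALL mice had 1.65 to 2.61 CPM.

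Mural cells wrap these vessels. Among 14 smooth muscle and pericyte markers, 7 fell and 1, Des, rose, compared with 3.18% and 3.32% of all genes. Pdgfrb, the receptor that recruits pericytes, had 15.6, 15.8, 18.1 and 16.2 CPM in ALL and 25.1 to 33.2 CPM (median 30.5) in Mature (logFC = -0.86, SE = 0.10, FDR = 7.1e-05). Notch3, the Notch receptor of mural cells (logFC = -0.44, SE = 0.09, FDR = 0.0084), and its transcriptional target Heyl (logFC = -0.91, SE = 0.13, FDR = 0.00057) fell without overlap. The summed level of the list was not lower, at 3351 to 3712 CPM in ALL and 2962 to 3442 CPM in Mature, and Des, which muscle fibres also express, alone averaged 2920 CPM in ALL. The mural count dropped to 3 without ALL replicate 3 or 4, and in the libraries with a mitochondrial share under 20% the endothelial count was 4 and Aplnr was not called (FDR = 0.077).

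In the Notch pathway list of 19 genes, 4 fell and 2 rose, compared with 3.18% and 3.32% of all genes. Of the 4, Notch3 and Heyl also belong to the mural list above. The gene that rose most was Mib1 (chr18:10725625-10818578), encoding the ubiquitin ligase that activates Notch ligands in the signal-sending cell. Mib1 had 181, 175, 295 and 370 CPM in ALL and 73.1 to 95.4 CPM (median 79.8) in Mature (logFC = 1.62, SE = 0.19, FDR = 7.1e-05). The lowest ALL mouse was thus well above the highest Mature mouse, although the ALL mice spread widely. Without ALL replicate 3 or 4, the members called lower numbered 2.

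Markers of nerve sheath had a low median logFC of -0.92 over 15 Schwann cell and myelin genes, of which 2 fell and 0 rose. Over all genes tested, 3.18% fell. Pmp22, a peripheral myelin protein, had 20.6, 17.8, 25.8 and 32.9 CPM in ALL and 25.2 to 146 CPM (median 50.7) in Mature (logFC = -1.42, SE = 0.38, FDR = 0.033), so the groups overlapped. Ugt8a, which makes the myelin lipid galactosylceramide, fell from 0.949 to 4.36 CPM in Mature to 0.44 to 0.714 CPM in ALL (logFC = -1.70, SE = 0.45, FDR = 0.03). The Mature mice differed among themselves, with 108 and 146 CPM of Pmp22 in replicates 5 and 7 against 25.2 to 52.6 CPM in the other 5. Without both mice, the logFC was -0.73 for Pmp22 (FDR = 0.06) and -1.17 for Ugt8a (FDR = 0.084), and both calls were also lost without ALL replicate 1, 2 or 3. Pmp22 was also lost without Mature replicate 5 (FDR = 0.053), and Ugt8a without ALL replicate 4 (FDR = 0.06). Of the axonal potassium channels, Kcna1 (logFC = -1.11, SE = 0.29, FDR = 0.03) was lost without ALL replicate 1 or 2, without Mature replicates 5 and 7 (logFC = -0.71, FDR = 0.071), in the libraries with a mitochondrial share under 20% (FDR = 0.084) and in the fit of ALL and Mature alone (FDR = 0.056). In that last fit Pmp22 was not called either (FDR = 0.074). Kcna2 (logFC = -0.97, SE = 0.23, FDR = 0.019) was lost without ALL replicate 2 or 3.

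Tendon markers had a median logFC of -1.32 over 12 genes, of which 3 fell and 1 rose, compared with 3.18% and 3.32% of all genes. The gene that rose was Scx (logFC = 0.7), with 2.46, 3.28, 2.87 and 3.2 CPM in ALL and 1.26 to 2.4 CPM in Mature, without overlap. Cilp2, a cartilage and tendon matrix gene, was at 0.212, 0.0425, 0.476 and 0.118 CPM in ALL and 0.423 to 2.47 CPM in Mature (logFC = -2.57, SE = 0.53, FDR = 0.008). Its groups overlapped by a single ALL mouse. The list's count of members called lower was 1 without ALL replicate 1, 2 or 4 and 2 without ALL replicate 3. It was also 2 without Mature replicate 1, 3 or 6, and 6 without Mature replicate 5. In the libraries with a mitochondrial share under 20% Cilp2 was not called (FDR = 0.082).

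The lowest logFC among the named genes belonged to Actc1 (chr2:114047282-114052875), encoding the cardiac alpha-actin that skeletal muscle expresses during development. It had 18.2, 31.7, 33.8 and 53 CPM in ALL and 213 to 441 CPM (median 268) in Mature (logFC = -3.06, SE = 0.41, FDR = 0.00022). ALL mice thus had 0.12 of the Mature level, with a wide gap between the groups. The skeletal actin Acta1 did not pass the test (logFC = -0.01, FDR = 0.97). Among 15 developmental muscle and myogenic genes, Actc1 was the 1 called lower and Myod1, a master regulator of the myogenic lineage, the 1 called higher. Of all genes, 3.18% fell and 3.32% rose, so these calls are not read as a result about the list. Myod1 had 13.4, 13, 12.6 and 11.5 CPM in ALL and 6.28 to 10.5 CPM (median 8.54) in Mature (logFC = 0.55, SE = 0.12, FDR = 0.0092).

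Imprinted genes are expressed from a single parental allele and many act on growth. Of 15 tested, 3 fell and 0 rose, with a median logFC of -0.31, compared with 3.18% of all genes that fell. Peg3, a zinc finger gene expressed from the paternal allele, had 14, 6.79, 10.9 and 10.8 CPM in ALL and 27 to 73.5 CPM (median 36.8) in Mature (logFC = -1.92, SE = 0.30, FDR = 0.00097). Meg3, a long non-coding RNA expressed from the maternal allele, had 8, 8.18, 9.63 and 5.88 CPM in ALL and 13.4 to 24.3 CPM in Mature (logFC = -1.23, SE = 0.19, FDR = 0.00082). Zdbf2, expressed from the paternal allele, fell from 0.851 to 1.73 CPM in Mature to 0.254 to 0.397 CPM in ALL (logFC = -1.89, SE = 0.27, FDR = 0.00041). For all 3 genes the groups were apart. The count of 3 or 4 held in each fit without 1 mouse, and was 6 with DESeq2.

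Other genes of muscle or of less known function fell by more than 2-fold. Glb1l2, a beta-galactosidase-like gene, had 2.64, 0.979, 2.19 and 3.73 CPM in ALL and 8.33 to 15.2 CPM in Mature (logFC = -2.25, SE = 0.31, FDR = 0.00026). Arhgap26 (chr18:38601617-39376285), a GTPase-activating protein, had 4.03, 4.1, 7.14 and 8.05 CPM in ALL and 10.6 to 20.9 CPM in Mature (logFC = -1.57, SE = 0.22, FDR = 0.00029). Mettl21e, a methyltransferase-like gene of skeletal muscle, fell from 4.01 to 9.28 CPM in Mature to 1.02 to 3.12 CPM in ALL (logFC = -1.48, SE = 0.27, FDR = 0.0029). Fibin, encoding a secreted protein first described in fin bud of fish, fell from 11.2 to 25.4 CPM to 3.64 to 7.43 CPM (logFC = -1.61, SE = 0.27, FDR = 0.0018). All 4 belong to the named genes of lowest logFC, which were taken only from genes whose groups did not overlap.

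Ostn (chr16:27307641-27351209), one of the 5 genes of smallest p, rose in ALL. It encodes musclin, a peptide secreted by muscle that binds the natriuretic peptide clearance receptor. Ostn had 49.5, 92.3, 96.1 and 76.7 CPM in ALL and 10.4 to 29.2 CPM (median 16.6) in Mature, a 4.52-fold difference (logFC = 2.18, SE = 0.21, FDR = 1.4e-05). Of 17 secreted muscle factors tested, Ostn was the 1 called higher and 4 were called lower, among them Sparc. Of all genes, 3.32% were called higher and 3.18% lower. The 4 fell to 1 without ALL replicate 1, 3 or 4 or Mature replicate 6, to 2 without ALL replicate 2 or Mature replicate 1 or 3, and to 1 in the libraries with a mitochondrial share under 20%.

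Tmem132b (chr5:125532418-125792583), encoding a transmembrane protein, had 12.2, 12.8, 6.11 and 10.9 CPM in ALL and 0.892 to 3.13 CPM (median 1.12) in Mature, a 7-fold difference (logFC = 2.81, SE = 0.28, FDR = 3e-05). Kcnab1, encoding a beta subunit of voltage-gated potassium channels, had 14.8, 17, 24.5 and 23.2 CPM in ALL and 3.94 to 7.32 CPM in Mature (logFC = 1.86, SE = 0.22, FDR = 7.7e-05). Syt9, a synaptotagmin that senses calcium in vesicle release, had 5.58, 6.86, 5.2 and 6.01 CPM in ALL and 0.589 to 2.36 CPM in Mature (logFC = 2.18, SE = 0.28, FDR = 0.00013). All 3 genes belong to the named genes of highest logFC, which were taken only from genes whose groups did not overlap. Gcnt2, a glycosyltransferase that branches poly-N-acetyllactosamine chains, and Stk26, a serine/threonine kinase, were among the 5 genes of smallest p. Gcnt2 had 17.8, 14.7, 17.9 and 17 CPM in ALL and 8.36 to 10.2 CPM in Mature (logFC = 0.88, SE = 0.08, FDR = 5.6e-06). Stk26 had 6.87, 5.16, 7.2 and 7.78 CPM in ALL and 2.55 to 3.22 CPM in Mature (logFC = 1.26, SE = 0.14, FDR = 7.1e-05). Replicates of each group lay close together for both genes.

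Lipid and less studied genes completed the strongest increases, which were taken only from genes whose groups did not overlap. Pla2g5, a secreted phospholipase A2, had 1.08, 4.41, 3.95 and 3.4 CPM in ALL and 0.311 to 1.02 CPM in Mature (logFC = 2.16, SE = 0.37, FDR = 0.0019), and ALL replicate 1 was just above the highest Mature mouse. Pld5, a member of the phospholipase D family, rose from 0.752 to 2.7 CPM to 3.18 to 6.76 CPM (logFC = 1.74, SE = 0.25, FDR = 0.0005). Cyp4f39, a cytochrome P450 of fatty acid omega-hydroxylation, rose from 0.04 to 0.774 CPM to 1.05 to 2.08 CPM (logFC = 2.05, SE = 0.43, FDR = 0.0083). Pkdrej, a polycystin family gene known from sperm, rose from 0.448 to 0.986 CPM to 1.62 to 2.44 CPM (logFC = 1.73, SE = 0.20, FDR = 7.1e-05). For Fam174b, ALL replicate 2 had 5.02 CPM and the other 3 ALL mice 1.5 to 1.65 CPM, all above the Mature range of 0.42 to 0.923 CPM (logFC = 1.95, SE = 0.39, FDR = 0.0066).

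**Figure D3:**
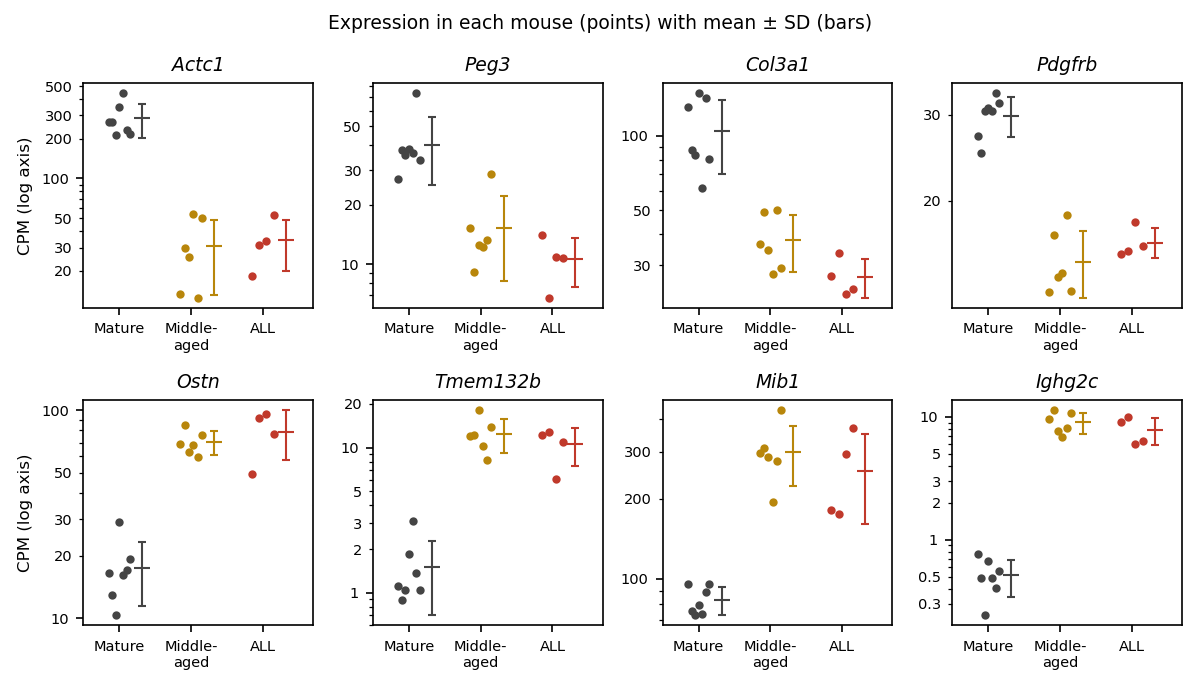
CPM of 8 genes on log axes (y) in each Mature (n = 7), Middle-aged (n = 6) and ALL (n = 4) mouse, with the mean and SD of each group beside the points. Actc1, Peg3, Col3a1 and Pdgfrb were lower in every ALL mouse than in every Mature mouse, Ostn, Tmem132b, Mib1 and Ighg2c were higher, and in each the ALL points overlap the Middle-aged range.

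Immunoglobulin genes rose, and the highest logFC among the named genes was theirs. They are transcribed by B cells and plasma cells. Ighg2c, the heavy chain constant gene of IgG2c, had 9.14, 10, 5.98 and 6.37 CPM in ALL and 0.245 to 0.766 CPM (median 0.488) in Mature, a 15.2-fold difference and the smallest p of all genes (logFC = 3.92, SE = 0.22, FDR = 4.3e-09). Ighm, the IgM heavy chain, had 133, 178, 94.2 and 140 CPM in ALL and 27.6 to 59.8 CPM (median 42.4) in Mature (logFC = 1.64, SE = 0.19, FDR = 7.1e-05). Igkc, the kappa light chain, had 2.24, 1.08, 0.397 and 0.884 CPM in ALL and 0.153 to 0.376 CPM in Mature (logFC = 2.36, SE = 0.53, FDR = 0.013), and ALL replicate 3 was barely above the highest Mature mouse. Igkc was not called without ALL replicate 1 (FDR = 0.058) or in the libraries with a mitochondrial share under 20% (FDR = 0.15). Ighg2b was at 0 in all 7 Mature mice and in ALL replicates 3 and 4, and at 1.24 and 0.269 CPM in ALL replicates 1 and 2 (FDR = 0.12). Of 16 B cell and plasma cell markers, 10 were tested, 3 rose, 0 fell and 7 were not called, compared with 3.32% of all genes that rose. Their summed level was 102 to 192 CPM in ALL and 30.5 to 62.6 CPM in Mature. That sum is dominated by Ighm and largely repeats the values of this 1 gene. In the list, 2 members were at 0 in every ALL mouse and 3 in every Mature mouse. These constant genes are close in sequence, and how reads shared between them were counted is not given in the sources used here.

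Of 11 adipocyte markers 2 were called and of 13 macrophage markers 1, all lower in ALL, compared with 3.18% of all genes. All 11 adipocyte markers had a negative logFC, and 8 of them had an unadjusted p under 0.05 with edgeR. Of the macrophage markers, 12 had a negative logFC and 2 had such a p. Over all 16731 genes, 3800 had such a p in either direction. Cfd, encoding adipsin, had 4.71, 2, 3.35 and 6.93 CPM in ALL and 3.11 to 54.1 CPM (median 23.3) in Mature (logFC = -2.57, SE = 0.66, FDR = 0.027). Mature replicate 3, at 3.11 CPM, lay within the ALL range. Adipoq, encoding adiponectin and chosen after its values were seen, followed the same order with 1.24, 0.355, 1.02 and 3.11 CPM in ALL and 0.654 to 12.7 CPM in Mature, and was not called (logFC = -2.04, SE = 0.76, FDR = 0.11). Cidec, a lipid droplet protein, was not called either (logFC = -2.62, SE = 0.84, FDR = 0.068), but was called without Mature replicate 3 (FDR = 0.042) and with DESeq2 (FDR = 0.018). The other adipocyte marker called was Fabp4, a fatty acid binding protein that endothelium also expresses (logFC = -0.61, SE = 0.18, FDR = 0.049), and the median logFC of the list was -2.20. Neither call survived leaving out ALL replicate 1, 2 or 3. Fabp4 was also lost without ALL replicate 4 and without any Mature mouse except replicate 4. The summed level of the list, dominated by Car3, which muscle fibres also express, was 2299 to 2555 CPM in ALL and 2355 to 3061 CPM in Mature.

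Ccr2, the chemokine receptor of inflammatory monocytes, had 1, 1.55, 1.27 and 0.84 CPM in ALL and 1.71 to 5.1 CPM (median 3.23) in Mature (logFC = -1.60, SE = 0.26, FDR = 0.0014). Itgam, the integrin chain CD11b of myeloid cells, had 0.591, 0.667, 0.476 and 0.368 CPM in ALL and 0.767 to 1.84 CPM in Mature (logFC = -1.23, SE = 0.26, FDR = 0.0089), and was the 1 of 13 macrophage markers called. Both were lower in every ALL mouse, but Itgam was not called in the libraries with a mitochondrial share under 20% (FDR = 0.067). The macrophage list summed to 14.4 to 40.9 CPM in ALL and 16.5 to 51.1 CPM in Mature, which overlapped. None of 15 antigen presentation genes, 12 chemokines and cytokines and 6 neutrophil and mast cell markers was called by edgeR, while 3 of these 33 genes had an unadjusted p under 0.05 and DESeq2 called 1. In addition, 2 of 22 interferon response genes fell, compared with 3.18% of all genes.

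The contractile and energy genes that make up most of the muscle transcriptome gave few calls. No member was called among 16 fast fibre genes (median logFC = -0.01), 12 slow fibre genes (-0.21), 20 citrate cycle enzymes (0.02), 13 genes of the mitochondrial genome (0.03), 23 proteasome subunits (-0.04), 15 atrophy ligases and FoxO genes (-0.12) and 19 clock genes (0.14). Of these 118 genes, edgeR called 0, compared with 6.5% of all genes tested, and DESeq2 called 3. An unadjusted p under 0.05 with edgeR was found for 9 of them, and for 3800 of all 16731 genes. Of these 9, 6 were atrophy ligases and FoxO genes, all lower in ALL. The rest were clock genes, 1 higher and 2 lower. Myh4, the fastest myosin heavy chain, averaged 50800 CPM in ALL and 52800 CPM in Mature (logFC = -0.06, FDR = 0.84). Slow fibre genes varied widely among mice, from 195 to 2915 summed CPM in Mature and from 373 to 1503 in ALL. Of 27 nuclear-encoded respiratory chain subunits 1 rose, of 25 glycolysis and glycogen genes 2 fell and of 24 fatty acid genes 1 fell. By comparison, 3.32% of all genes rose and 3.18% fell, so 1 or 2 calls in such a list are not read as a result about it. Of 10 genes that handle fructose and other hexoses 1 rose, Sord, encoding sorbitol dehydrogenase (logFC = 0.33, SE = 0.08, FDR = 0.02), with 70.1, 69.1, 60.6 and 62.8 CPM in ALL and 42.8 to 59.7 CPM in Mature. Sord was not called without ALL replicate 1 (FDR = 0.057) or 2 (FDR = 0.061).

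**Figure D4:**
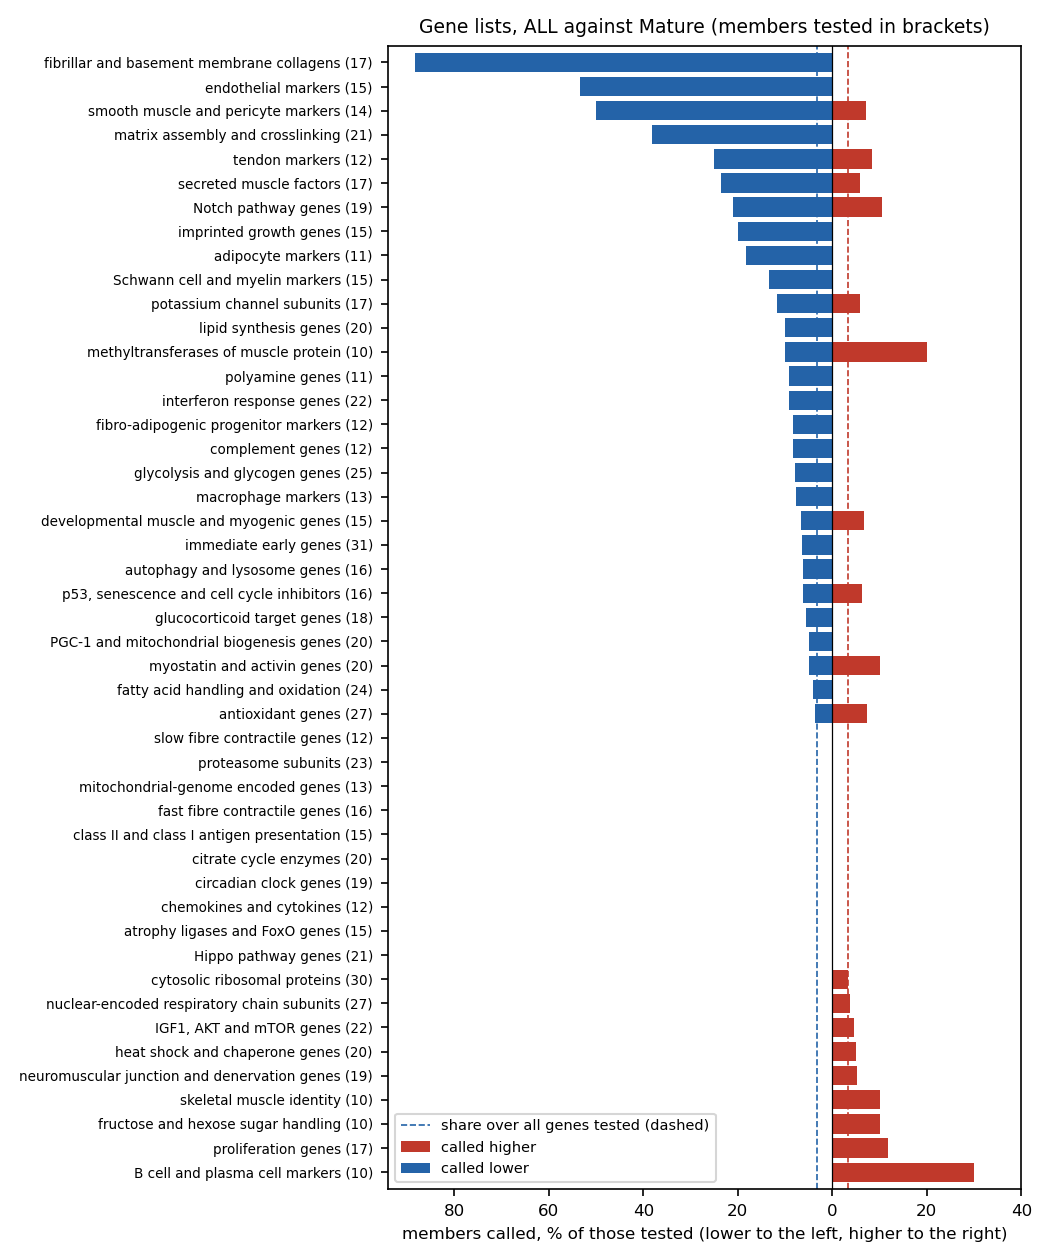
Share of the tested members of each gene list called lower (left, blue) and called higher (right, red) in ALL against Mature, for the 47 lists with 10 or more members tested, with dashed lines at the shares over all genes tested, 3.18% and 3.32%. Collagens, vascular markers and matrix assembly genes reach far to the left, and B cell and plasma cell markers reach farthest to the right.

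Further lists held only a few called genes each. Among 27 antioxidant genes 2 rose and 1 fell. Gpx4, the glutathione peroxidase that reduces lipid peroxides, had 225, 264, 256 and 244 CPM in ALL and 171 to 214 CPM in Mature (logFC = 0.34, SE = 0.07, FDR = 0.008). Gpx3, the secreted glutathione peroxidase, had 184, 172, 243 and 214 CPM in ALL and 108 to 169 CPM in Mature (logFC = 0.60, SE = 0.13, FDR = 0.012). Both are selenoproteins, and the groups were narrowly apart. Of the cell cycle inhibitors, Cdkn2c, a CDK4 and CDK6 inhibitor, rose (logFC = 0.54, SE = 0.08, FDR = 0.00066) and Cdkn1b, encoding p27, fell (logFC = -0.70, SE = 0.11, FDR = 0.0013). Sat1, the enzyme that acetylates polyamines for export and breakdown, had 13.8, 12.9, 12.5 and 14 CPM in ALL and 17.1 to 21.2 CPM in Mature (logFC = -0.55, SE = 0.09, FDR = 0.001), and was the 1 of 11 polyamine genes called. Igfbp5, an IGF-binding protein, rose (logFC = 0.88, SE = 0.20, FDR = 0.013) as the 1 call among 22 IGF1, AKT and mTOR genes. Rps20 was the 1 of 30 ribosomal protein genes called (logFC = 0.48, SE = 0.10, FDR = 0.0062), and Ctsl, the lysosomal protease cathepsin L, the 1 of 16 autophagy and lysosome genes (logFC = -0.41, SE = 0.09, FDR = 0.014). Of all genes tested, 3.32% were called higher and 3.18% lower, so these few calls are not read as results about the lists. Without ALL replicate 3, Gpx3 (FDR = 0.071), Igfbp5 (FDR = 0.057) and Ctsl (FDR = 0.051) were not called. In the libraries with a mitochondrial share under 20%, Gpx4 (FDR = 0.06), Rps20 (FDR = 0.057) and Igfbp5 (FDR = 0.058) were not.

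The study singles out a set of genes in its account of age and diet. Of the 14 given here, 3 passed the test between ALL and Mature, Actc1, Tmem132b and Igkc, whose values stand above, and 11 did not. Ajuba, a LIM protein that restrains Hippo signalling, had 1.64, 1.18, 1.46 and 2.31 CPM in ALL and 1.86 to 3.02 CPM (median 2.47) in Mature (logFC = -0.58, 95% interval -0.99 to -0.17, FDR = 0.084). Klf4, a zinc finger transcription factor, had 12.7, 7.63, 8.46 and 9.15 CPM in ALL and 7.87 to 10.3 CPM in Mature (logFC = 0.08, 95% interval -0.29 to 0.45, FDR = 0.83). Sik1, a salt-inducible kinase (95% interval -0.31 to 0.44), Btg2, an antiproliferative immediate early gene (-0.26 to 0.47), and Flrt1, a neuronal adhesion protein (-0.40 to 0.47), had intervals of similar width around 0. The clock gene Per1 (-0.32 to 0.75) and the complement component C3 (-0.23 to 0.82) were less precise. ALL replicate 2 was the lowest ALL mouse for Klf4, Sik1, Btg2 and Per1. Aco1, the cytosolic aconitase that doubles as an iron regulatory protein (logFC = -0.19, 95% interval -0.32 to -0.07, FDR = 0.056), and Ppargc1b, a coactivator of mitochondrial genes (logFC = 0.45, 95% interval 0.14 to 0.76, FDR = 0.076), missed the threshold narrowly. DESeq2 called Ajuba (FDR = 0.046), Aco1 (FDR = 0.026) and Ppargc1b (FDR = 0.039), and edgeR called Ajuba without ALL replicate 4 (FDR = 0.037), Aco1 without Mature replicate 6 (FDR = 0.034) and Ppargc1b without Mature replicate 1 (FDR = 0.045). AW551984 was near the floor, at 0 to 0.222 CPM in ALL and 0.0495 to 0.488 CPM in Mature (FDR = 0.19).

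**Figure D5:**
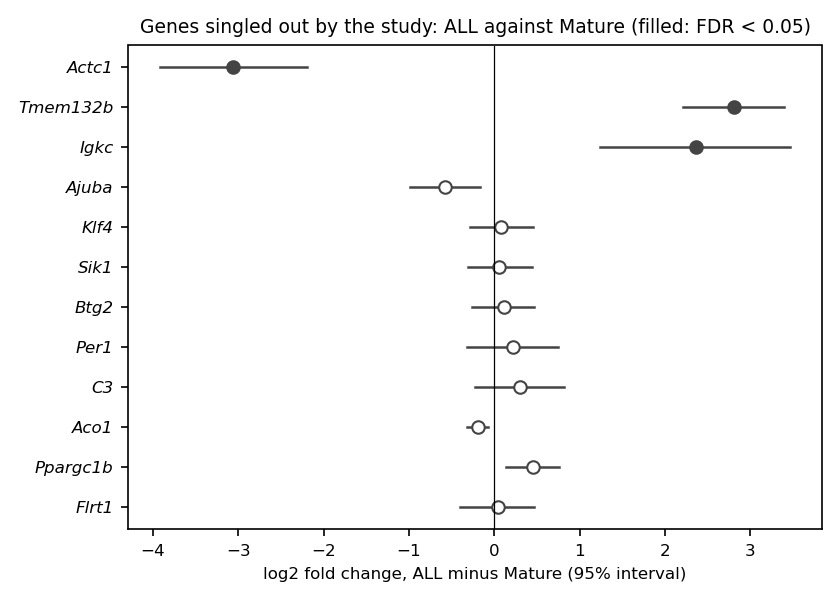
Log2 fold change of ALL against Mature with its 95% interval (x axis) for 12 genes that the study singles out (y axis), filled where FDR was under 0.05. Actc1, Tmem132b and Igkc are filled and lie far from 0, the open points of Ajuba, Aco1 and Ppargc1b have intervals that exclude 0 before adjustment over all genes, and the other 6 intervals include 0, while Ighg2b and AW551984, near the floor, are not drawn.

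Middle-aged mice without allulose were set beside these values. They share the Mature mice as controls, so the comparisons are not independent. Against Mature, Middle-aged mice had a logFC of -3.20 for Actc1, -1.46 for Col3a1, -1.05 for Sparc, -0.99 for Pdgfrb, 2.01 for Ostn, 3.05 for Tmem132b, 1.85 for Mib1 and 4.12 for Ighg2c. The matching values in ALL were -3.06, -1.95, -1.21, -0.86, 2.18, 2.81, 1.62 and 3.92. Of the 17 collagens, 11 fell in Middle-aged mice, compared with 5.54% of all genes that fell, and of the 15 endothelial markers also 11 fell. Of the 10 B cell and plasma cell markers tested, 4 rose in Middle-aged mice, compared with 4.75% of all genes that rose. Other lists differed more in their counts. Counts of calls also depend on the number of mice, 6 in Middle-aged and 4 in ALL. Of the 15 Schwann cell and myelin markers, 13 fell in Middle-aged mice (median logFC = -1.75) against 2 in ALL (median -0.92). Of the 22 interferon response genes, 10 fell in Middle-aged mice against 2 in ALL, although the medians were close, at -0.41 and -0.34. Of the 11 adipocyte markers, 0 fell in Middle-aged mice (median logFC = -0.29) against 2 in ALL.

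The test of the difference is ALL against Middle-aged. Of 16731 genes, 0 (0%) passed an FDR of 0.05 with edgeR, 2 passed with DESeq2 and 4 with the likelihood ratio test, and 603 had an unadjusted p under 0.05. The 286 genes called in ALL and not in Middle-aged mice against Mature are therefore not shown to differ between the diets, and 64 of them had an unadjusted p under 0.05 in the direct test. All 15 Schwann cell and myelin markers had a positive logFC in that test (median 0.74), 5 of them with an unadjusted p under 0.05. The adipocyte markers had a median of -1.84, with 6 lower and 1 higher at an unadjusted p under 0.05. For the 22 interferon response genes the median was 0.25, with 2 higher and 1 lower at an unadjusted p under 0.05 with edgeR. Itgam had 0.852 to 1.7 CPM in Middle-aged mice (median 1.15) and was lower in each ALL mouse (ALL minus Middle-aged logFC = -1.17, unadjusted p = 0.00031 with edgeR, FDR = 1). Cfd had 4.62 to 34.1 CPM in Middle-aged mice, overlapping ALL (logFC = -1.84, unadjusted p = 0.011 with edgeR, FDR = 1). Col3a1 had 27.7 to 50.3 CPM in Middle-aged mice (logFC = -0.49, unadjusted p = 0.047 with edgeR, FDR = 1). Flrt1 (logFC = -0.69, unadjusted p = 0.0047 with edgeR) and Klf4 (logFC = -0.47, unadjusted p = 0.02) also had an FDR of 1. The median SE of this comparison was 0.14 on the log2 scale.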

How the data were processed

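Gene expression of gastrocnemius muscle was measured by stranded mRNA sequencing. The authors deposited counts per gene, whole numbers that were used here as deposited, with FPKM and TPM of the same genes, normalized by the authors and not used here. The submitters' notes name Trimmomatic 0.38, FastQC 0.11.7, HISAT2 2.1.0, featureCounts and mm10. The study's methods instead name STAR and StringTie, and which of them made the counts is not given in the sources used here. Another 18 columns, 10 of counts and 8 of TPM for mice outside the 3 groups, were not used. Gene positions and promoters came from RefSeq (GRCm38.p6, the build of mm10), in which 45679 of 45777 gene IDs were found.

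Genes were filtered with filterByExpr, scaled by TMM and tested with the quasi-likelihood F test of edgeR 4.0.16 in R 4.3.3, in one fit of all 17 mice with the group as the only term. P-values were adjusted by the Benjamini-Hochberg method over 16731 genes, and genes with FDR under 0.05 were called. SE is the size of logFC divided by the square root of F. CPM are TMM-scaled. Depth was 49774656 to 70544150 counts in ALL and Mature. Replicates are separate mice, and no library repeated another. On counts simulated for ALL against Mature, 74% of genes changed 2-fold and 39% of genes changed 1.41-fold were recovered among 16520 genes fitted, with 3 false calls. The simulation changed 200 genes in ALL only and drew each count independently at the fitted dispersions. It held no split in mitochondrial share, so it does not give the number of false calls in the data.

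The comparison, gene lists and genes were chosen with earlier results of these data known. Named genes are from the 12 highest and 12 lowest logFC among called genes with logCPM over 0 and groups apart, the 5 smallest p, up to 4 genes of smallest p in each of 53 lists, and genes the study names, of which some are not reported here. Others are marked. Lists were described by counts and medians without a test. Alternatives were DESeq2 1.42.0, library size scaling, no mitochondrial genes, no filter, a fit of ALL and Mature alone, the likelihood ratio test, the replicate number as a block, the mitochondrial share as a covariate and leaving out each mouse. Leaving out libraries with a mitochondrial share of 20% or more, and Mature replicates 5 and 7, was added after seeing the data.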

Additional observations from a re-analysis of the deposited data

Results flagged for a closer look

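Among 74 of the genes named, checked in ALL and in Mature, 7 of 148 gene and group pairs had 1 mouse far from the others by Dixon's criterion. Chance meets this criterion in about 1 of 20 groups. Fam174b was at 5.02 CPM in ALL replicate 2 against 1.5 to 1.65 CPM in the other ALL mice. In Mature mice, Peg3 was at 73.5 CPM in replicate 6 against 27 to 38.2 CPM, and Mettl21e was at 9.28 CPM in the same mouse against 4.01 to 6.26 CPM. Tmem132b was at 3.13 CPM in Mature replicate 5 against 0.892 to 1.85 CPM, and Igkc was at 0.376 CPM in that mouse against 0.153 to 0.236 CPM. Ugt8a was at 4.36 CPM in Mature replicate 7 against 0.949 to 2.4 CPM, and Btg2 was at 10.7 CPM in Mature replicate 2 against 13.9 to 14.8 CPM.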

How the results depend on the processing

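Of 1087 genes called between ALL and Mature (555 higher, 532 lower), DESeq2 called 1681 with 877 lower, library size scaling called 368 higher, the replicate block called 615 (302 higher, 313 lower), and the libraries with a mitochondrial share under 20% called 401 (227 higher, 174 lower). With the mitochondrial share as a covariate, 1453 genes were called, and all 1087 were among them. Leaving out 1 mouse gave 430 to 1096 calls, 238 to 548 of them higher and 192 to 554 lower, with the lowest counts without ALL replicate 3. Between ALL and Middle-aged, 0 calls became 2 with DESeq2, 4 with the likelihood ratio test, 1 without ALL replicate 3 and 1 in the libraries with a mitochondrial share under 20%. Between Middle-aged and Mature the latter gave 456 in place of 1721. Deviations of ALL and Mature mice of equal replicate number correlated at 0.086, 0.111, -0.038 and 0.129, and 2 of the 4 correlated best with their own number. These values do not settle whether the replicate numbers pair the mice. The animal numbers in the titles mostly differ between ALL and Mature mice of equal replicate number. The study treated each mouse as an independent unit. Under the block, Igkc, Ugt8a, Pmp22, Kcna1, Cfd, Igfbp5, Ctsl, Des and Sord were not called.

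Uncalled genes near 0 changed sign. Leaving out 1 mouse gave -0.09 to 0.17 for Klf4, -0.06 to 0.28 for Sik1, -0.02 to 0.24 for Btg2, -0.02 to 0.15 for Flrt1 and -0.01 to 0.51 for Per1, and the highest values came without ALL replicate 2 except for Flrt1. Under the block Sik1 was at -0.11, and in the libraries with a mitochondrial share under 20% Klf4 was at -0.15 and Flrt1 at -0.14. The causes were not tested. For these genes the intervals give the range of differences that the data leave possible.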
